A study of Arabidopsis thaliana with 8 samples.

Results

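Expansins loosen the plant cell wall, and the xyloglucan endotransglucosylase/hydrolases (XTH) are enzymes that cut its xyloglucan. Transcripts of these families, and of the related expansin-like proteins, were compared here between 2 Arabidopsis thaliana accessions. The genes were taken by name: every probe set with a single gene whose symbol in the platform annotation starts with EXPA, EXPB, EXLA, EXLB or XTH and a digit. That gave 27 genes of the 13350 genes named from single-gene probe sets, and of 64 genes that carry such a symbol in the RefSeq annotation of TAIR10.1. They were 10 alpha-expansins (EXPA), 4 beta-expansins (EXPB), 4 expansin-like genes (EXLA and EXLB) and 9 XTH genes, each with 1 probe set. The other family genes were not analysed here.

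The study hybridised total RNA from whole plants to the Affymetrix ATH1 array, a 1-colour array designed on Columbia sequence, with 4 arrays for Cal-0 and as many for Col-4. The labels call Cal-0 a calcicole, which is a plant at home on lime-rich soil, and Col-4 a non-calcicole. Plants of both accessions stood in sand in a growth room at 23 °C to developmental stage 3.90, with a dilute nutrient solution (0.5 times Long Ashton) and 1 mM calcium chloride. The labels also give both accessions 48 h of stratification at 4 °C, a humidity value of 34 and a light value of 160. All plants had the same calcium dose, so the arrays compare accessions and not a response to lime. A single accession stands for each kind of plant. For a Cal-0 signal below that of Col-4, fewer transcripts and weaker binding to probes designed on Columbia sequence cannot be told apart. In whole-plant RNA, likewise, fewer cells of a type and less RNA per cell cannot be told apart.

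Expansins loosen the wall without cutting its polysaccharides, probably by freeing cellulose from its contacts with other polymers, and alpha-expansins act best at the acid pH that growing cells set up in their walls. XTH enzymes cut xyloglucan, the main hemicellulose tethered to cellulose in Arabidopsis primary walls, and either join the cut end to another chain or release it to water. Expansin-like proteins share the expansin fold, but wall loosening by them has not been shown. Several members of these families are known from roots, among them EXPA7 and EXPA18 from root hair cells.

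Signals are deposited MAS5 values, the brightness of a probe set on a linear scale. Array medians lay between 44.0 and 50.1, and the number of arrays limits the precision. A probe set was tested where its mean over the 8 arrays reached 25, which left 18 of the 27 genes. The 9 others, EXPA16, EXPA20, EXPA21, EXPA24, EXLA2, EXLA3, XTH21, XTH26 and XTH29, had array signals between 0.9 and 35.9. Differences are Cal-0 minus Col-4 on the scale of log2(signal + 16), which understates the change of dim genes, and p-values are from limma, adjusted by the Benjamini-Hochberg method over all 15165 tested probe sets. Of these, 651 passed at 0.05, which is 4.29%, with 1.54% higher and 2.75% lower in Cal-0.

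In the fit without a block, these genes passed at about the share of all tested probe sets. XTH33, of the XTH enzymes, was higher in Cal-0, where its signals ran from 44.3 to 52.1, against 4.3 to 34.6 in Col-4. The expansins EXPB3, EXPA8 and EXPB1 were lower in Cal-0 in every pair of arrays with the same replicate number, at 51.9%, 56.8% and 66.6% of the Col-4 mean. So was EXPA9, which makes 22.2% of the 18 tested genes, against 13.8% of all tested probe sets. Without a block, 1 of the 18 tested genes passed (5.56%, against 4.29% of all tested probe sets). This was XTH33, and it entered the test only through its Cal-0 signal. Arrays that share a replicate number deviated from their accession means together (correlations of 0.278 to 0.478). For replicates 1 and 2, unlike numbers did so too (0.273 and 0.382), so the data do not single out the replicate number there. The labels do not say that same-numbered arrays were grown or processed together. A fit that blocks on the replicate number called 4 of the 18 (22.2%, against 8.57% of all tested probe sets). XTH33 was then higher (3.61% of all were), and 3 genes, EXPB3, EXPA8 and EXPB1, were lower in Cal-0 (16.7%, against 4.95% of all). The median difference of the 18 genes was 0.04, close to the 0.03 of all tested probe sets, with 10 positive and 8 negative values (44.8% of all tested probe sets were negative). Among the 6 genes with a mean signal of at least 100, 5 were negative, where 43.9% of all such probe sets were. Without adjustment, 4 of the 18 had a p under 0.05 (22.2%, against 15.5% of all).

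XTH33 (AT1G10550) encodes an XTH with a predicted membrane anchor, unlike most of the family. Its signals were 44.3, 52.1, 46.7 and 44.5 in Cal-0 replicates 1 to 4, against 5.2, 4.3, 20.0 and 34.6 in Col-4 replicates 1 to 4. The Cal-0 arrays lay close together and the Col-4 arrays did not, and no Col-4 value reached the lowest Cal-0 value. XTH33 was the only one of the 18 genes whose groups did not overlap (5.56%, against 10.3% of all tested probe sets). Its mean was 46.9 ± 3.63 for Cal-0 and 16.02 ± 14.3 for Col-4 (SD over the arrays, n = 4 per accession). The difference was 1.08 on the log2 scale with a standard error of 0.26 (limma adjusted p = 0.0373). The Col-4 mean is under the minimum of 25, so that the gene entered the test only through its Cal-0 arrays, which favours a difference in this direction. Without that filter it did not pass (limma adjusted p = 0.0841). The lowest Col-4 signals are too low to carry a level, and the size of the difference is therefore not a measured fold.

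The XTH33 difference also varied with the arrays read. Titles number the arrays 1 to 8, and the first 4 hold replicates 1 and 2 of both accessions, the last 4 replicates 3 and 4. It passed within arrays 1 to 4 (limma adjusted p = 0.00281, with 2.5% of all tested probe sets passing). The value there, 1.63, is not a measured fold either, since the Col-4 signals were 5.2 and 4.3. Within arrays 5 to 8 it was 0.53 (limma adjusted p = 0.284, with 2.1% of all passing). The test of the change between array sets rests on the same low signals and did not pass (limma adjusted p = 0.999), nor did any probe set pass it (0.0%). An unadjusted p under 0.05 was reached by 607 probe sets (4.0%) and by 4 of the 18 genes (22.2%), XTH33, EXPA18, EXPA7 and XTH32. RNA quality, read from the log2 ratio of 3′ over 5′ probe signal for control transcripts (GAPDH and actin), also parted the accessions in arrays 1 to 4, at 1.70 and 1.52 for Cal-0 and 0.955 and 0.927 for Col-4. In arrays 5 to 8 it stood at 1.88 and 1.96 for Cal-0 and 1.66 and 2.39 for Col-4. With that ratio as a covariate the XTH33 difference was 0.84 (limma adjusted p = 0.00755, with 5.72% of all tested probe sets passing). Both this pass and that within arrays 1 to 4 keep the filter that XTH33 met only through Cal-0. Both also use the same low Col-4 signals, so neither adds independent support. The difference was 1.93 with a pseudocount of 1 and no longer past the threshold (limma adjusted p = 0.0908). Leaving out any of the 4 Cal-0 arrays, or Col-4 replicate 1 or 2, also ended the call, with adjusted p between 0.0685 and 0.108.

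**Figure D1:**
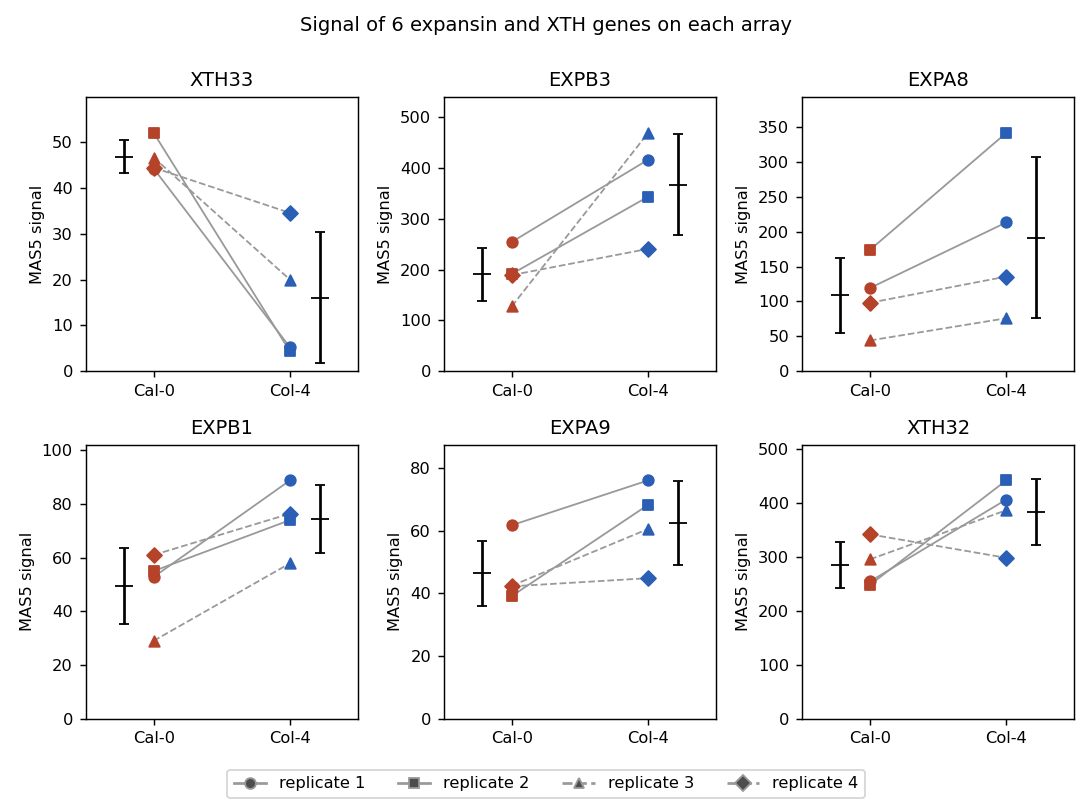
MAS5 signal (vertical axis, linear, from 0) of XTH33, EXPB3, EXPA8, EXPB1, EXPA9 and XTH32 on each array, Cal-0 at the left and Col-4 at the right of each panel. Lines join arrays with the same replicate number, dashed for replicates 3 and 4, and black bars are means ± SD (n = 4 arrays). All 4 lines run upward to Col-4 for EXPB3, EXPA8, EXPB1 and EXPA9, and all 4 run downward for XTH33.

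Among the beta-expansins, EXPB3 (AT4G28250) had the largest difference of the tested expansins in size. It stood at 254.5, 191.4, 127.7 and 189.2 in Cal-0 replicates 1 to 4, against 416.4, 343.5, 469.2 and 240.8 in Col-4 replicates 1 to 4. Only the highest Cal-0 array and the lowest Col-4 array overlapped. The Cal-0 mean of 191 ± 51.8 was 51.9% of the Col-4 mean of 367 ± 98.9 (SD over the arrays, n = 4 per accession). The log2 difference of -0.89, with a standard error of 0.23, missed the threshold without a block (limma adjusted p = 0.0529) and passed with the replicate block (limma adjusted p = 0.0333). Its residual SD, the spread left after the fit, was 0.39 without the block and 0.43 with it. The unadjusted limma p hardly moved, from 0.00238 to 0.00216, while the share of all tested probe sets that passed rose from 4.29% to 8.57%. Without a block EXPB3 also passed under 6 other settings (limma adjusted p of 0.0373 to 0.0477). These were a pseudocount of 50, a minimum mean signal of 100, array weights, quantile normalization, a robust fit with intensity trend, and median centring. With the minimum of 100, 406 of 6614 probe sets passed, and under the others 664 to 864 of 15165, against 651 in the main fit. All these settings reuse the same 8 arrays and add no independent support. Leaving out Cal-0 replicate 1 or Col-4 replicate 4 brought the call too, at adjusted p of 0.0473 and 0.0163, while no call was made with any other array left out (0.0927 to 0.139). The difference was -0.74 within arrays 1 to 4 and -1.04 within arrays 5 to 8, and -0.78 with the RNA quality ratio as a covariate (limma adjusted p = 0.066).

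EXPB1 (AT2G20750) read 52.8, 55.0, 29.0 and 61.0 in Cal-0, against 88.8, 74.0, 57.9 and 76.4 in Col-4. The groups overlapped through Cal-0 replicate 4 and Col-4 replicate 3, yet each Cal-0 array was below the Col-4 array of its number. The log2 difference was -0.48 with a standard error of 0.19 (limma adjusted p = 0.223), and it passed with the replicate block (limma adjusted p = 0.0476). It did not pass with the array set block (limma adjusted p = 0.126) or with the RNA quality ratio as a covariate (limma adjusted p = 0.232). The difference was -0.31 without Cal-0 replicate 3. The other 2 beta-expansins had positive differences and did not pass with or without the block. EXPB5 had signals of 30.6, 35.6, 26.2 and 38.1 in Cal-0, against 39.7, 24.2, 20.6 and 20.6 in Col-4 (a difference of 0.22 on the log2 scale, limma adjusted p = 0.616). EXPB2 averaged 60.1 ± 11.9 for Cal-0 and 50.5 ± 11.5 for Col-4 (SD over the arrays, n = 4 per accession).

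Alpha-expansins, the class best known for acid-induced wall extension, had 6 tested members, 4 with negative and 2 with positive differences and a median of -0.23. EXPA8 (AT2G40610) varied more within each accession than any other of them. Its signals were 119.3, 174.0, 44.0 and 98.1 in Cal-0 replicates 1 to 4, against 213.4, 341.9, 75.9 and 135.7 in Col-4 replicates 1 to 4. Replicate 2 was the highest and replicate 3 the lowest in either accession, so that the signal spread 3.95-fold within Cal-0 and 4.5-fold within Col-4. Set pair by pair, Cal-0 reached 55.9%, 50.9%, 58.0% and 72.3% of the Col-4 signal.

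Read without the pairs, the accessions overlapped in EXPA8. The means were 109 ± 53.8 for Cal-0 and 192 ± 115 for Col-4 (SD over the arrays, n = 4 per accession), and the log2 difference of -0.68 had a standard error of 0.41 (limma adjusted p = 0.501). An exact two-sided permutation test of the unpaired values gave p = 0.286. The difference was -0.36 with Cal-0 replicate 3 or Col-4 replicate 2 left out, and -1.01 with Col-4 replicate 3 left out. Blocking on replicate number brought the standard error to 0.12, and the gene passed (limma adjusted p = 0.0121). Only 0.745% of all tested probe sets varied more within accessions than EXPA8 did, by residual SD, while 61.3% did once the replicate number was in the fit. A block for arrays 1 to 4 against 5 to 8 alone left EXPA8 short of the threshold (limma adjusted p = 0.146, with 7.22% of all tested probe sets passing). With the RNA quality ratio as a covariate its difference was -0.41 (limma adjusted p = 0.593).

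EXPA9 was at 61.7, 39.1, 42.4 and 42.2 in Cal-0, against 76.0, 68.2, 60.5 and 44.8 in Col-4. It too was below Col-4 in all 4 pairs, though the 2 values of replicate 4 nearly met (a difference of -0.33 on the log2 scale, limma adjusted p = 0.399, and 0.17 with the replicate block). EXPA4 was at 155.2, 162.4, 139.9 and 121.6 in Cal-0, against 232.5, 156.2, 260.1 and 141.7 in Col-4. Its Cal-0 arrays were alike, its Col-4 arrays fell into a higher and a lower pair, and 3 of 4 same-numbered pairs were lower in Cal-0 (a difference of -0.38 on the log2 scale, limma adjusted p = 0.393). EXPA15 had means of 194 ± 45.8 for Cal-0 and 213 ± 27.7 for Col-4 (SD over the arrays, n = 4 per accession). All 4 pairs were lower in Cal-0 for 4 of the 18 genes, EXPB3, EXPA8, EXPB1 and EXPA9 (22.2%), against 13.8% of all tested probe sets. All 4 pairs were higher in Cal-0 for 1, XTH33 (5.56%, against 16.3% of all).

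**Figure D2:**
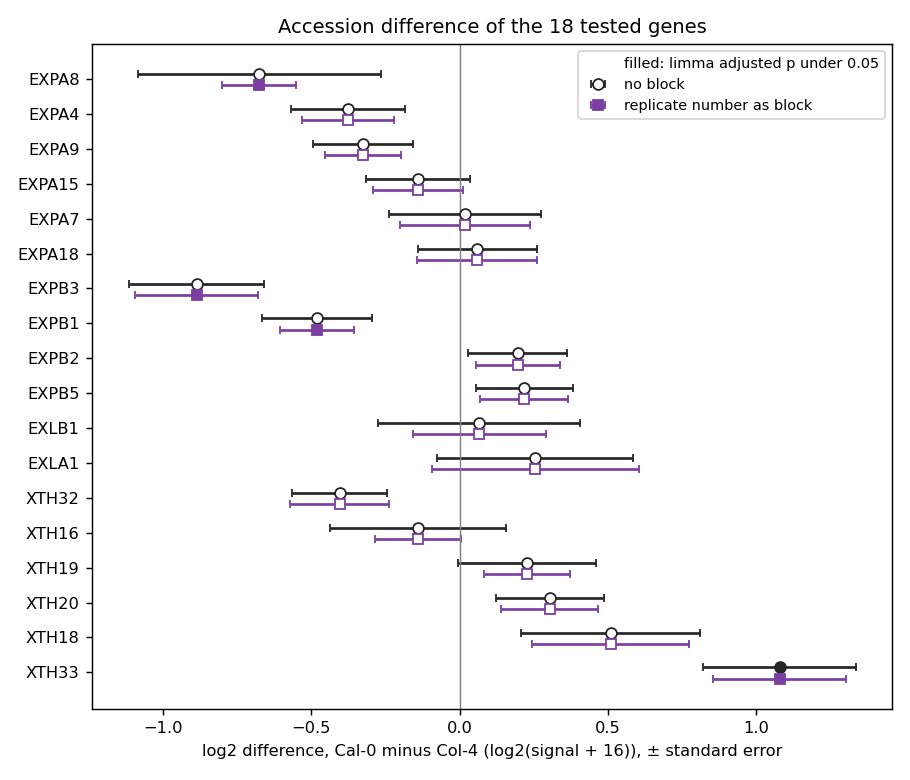
Log2 difference, Cal-0 minus Col-4, of the 18 tested genes on the log2(signal + 16) scale (horizontal axis), with bars of 1 standard error, ordered by class. Circles are the fit without a block and squares the fit with the replicate number as a block, filled where the limma adjusted p is under 0.05. The bar of EXPA8 spans 0.12 to either side with the block and 0.41 without it, and XTH33 at 1.08 and EXPB3 at -0.89 lie at the ends.

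EXPA7 (AT1G12560) and EXPA18 (AT1G62980), the alpha-expansins of root hair cells, had differences of 0.02 and 0.06 and did not pass. EXPA7 had 37.9, 55.5, 49.4 and 39.5 in Cal-0, against 85.7, 52.7, 33.0 and 22.9 in Col-4, and EXPA18 had 50.4, 48.7, 81.5 and 51.8 in Cal-0, against 73.7, 67.5, 38.8 and 42.7 in Col-4. In both genes Col-4 replicates 1 and 2 were above Col-4 replicates 3 and 4. The difference of EXPA7 was -0.43 within arrays 1 to 4 and 0.46 within arrays 5 to 8, and that of EXPA18 was -0.40 and 0.52. The limma test of that change gave unadjusted p of 0.026 for EXPA7 and 0.00838 for EXPA18, and adjusted p of 0.999 for both. PYK10, a beta-glucosidase gene of roots and the only root marker matched, gave 1010.3, 1106.1, 639.0 and 395.0 in Cal-0, against 887.3, 566.1, 638.2 and 328.8 in Col-4. Its part in these differences was not tested.

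The expansin-like genes varied between single arrays. EXLA1 reached 163.0 in Cal-0 replicate 3 and 45.8 to 61.9 in the other Cal-0 arrays, against 33.6 to 97.1 in Col-4. EXLA2, known from mutants with altered response to necrotrophic fungi, was also highest in Cal-0 replicate 3, at 35.9 against 5.1 to 5.9 in the other Cal-0 arrays, and lay between 5.5 and 21.6 in Col-4. EXLB1 was at 217.1, 175.6, 248.6 and 169.2 in Cal-0, against 292.6, 197.1, 297.6 and 72.5 in Col-4, where replicate 4 stood far below the rest. Neither EXLA1 (difference 0.25) nor EXLB1 (0.07) passed, and EXLA3, parted from EXLA1 in the genome by 1 gene, was at 1.8 to 8.3 on all arrays. Without Cal-0 replicate 3 the EXLA1 difference was -0.09, and without Col-4 replicate 4 that of EXLB1 was -0.34.

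**Figure D3:**
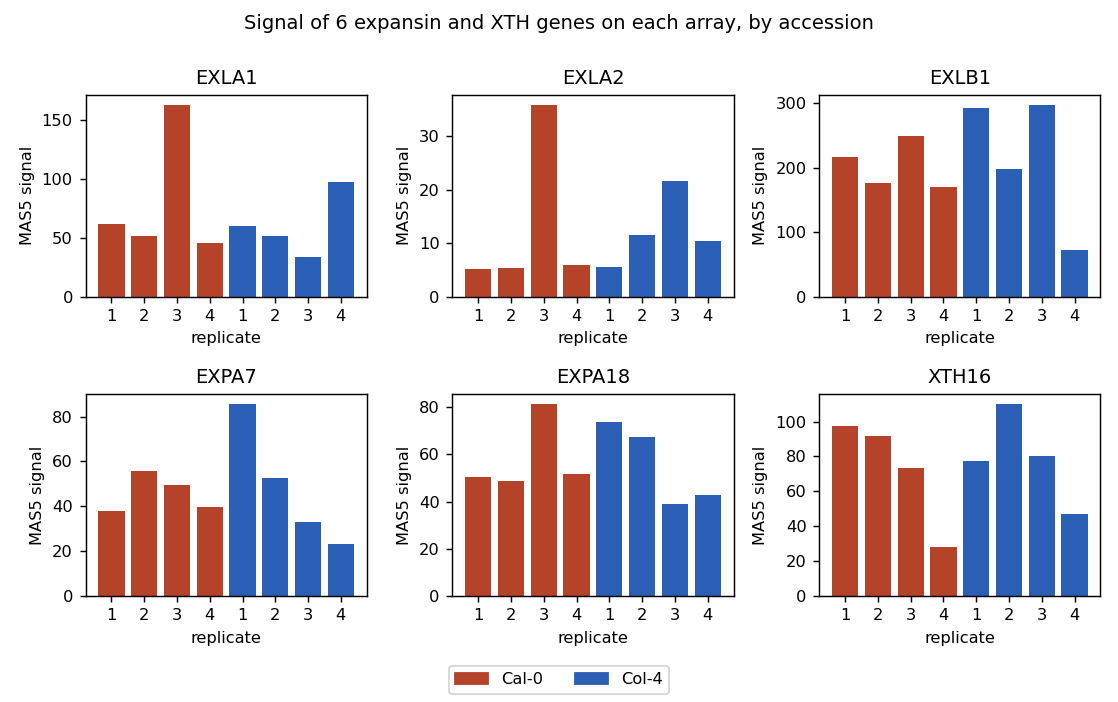
MAS5 signal (vertical axis, linear, from 0) of EXLA1, EXLA2, EXLB1, EXPA7, EXPA18 and XTH16 on each array, with Cal-0 replicates 1 to 4 at the left and Col-4 replicates 1 to 4 at the right of each panel. EXLA1 and EXLA2 have their highest bar in Cal-0 replicate 3, at 163.0 and 35.9, and EXLB1 its lowest in Col-4 replicate 4, at 72.5.

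XTH genes other than XTH33 did not pass in either fit. XTH32 belongs to the subgroup whose known member XTH31 has hydrolase activity, and it was the tested XTH gene with the largest negative difference. It was at 254.3, 248.0, 295.3 and 341.6 in Cal-0, against 406.2, 441.7, 386.4 and 298.1 in Col-4 (a difference of -0.41 on the log2 scale with a standard error of 0.16, limma adjusted p = 0.233). The first 3 pairs were lower in Cal-0 and the fourth was higher, so that the difference was -0.72 within arrays 1 to 4 and -0.09 within arrays 5 to 8.

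XTH18 and XTH19 are direct neighbours in the genome and are known, with XTH20, from roots. XTH18 gave 74.9, 78.3, 43.2 and 36.8 in Cal-0, against 53.9, 20.2, 16.9 and 62.5 in Col-4 (a difference of 0.51 on the log2 scale, limma adjusted p = 0.487). XTH20 gave 36.6, 64.8, 35.2 and 46.3 in Cal-0, against 46.2, 33.9, 28.9 and 26.0 in Col-4 (a difference of 0.30 on the log2 scale, limma adjusted p = 0.495). XTH19 averaged 46.1 ± 19.1 for Cal-0 and 36.4 ± 12.4 for Col-4 (SD over the arrays, n = 4 per accession). Each of these 3 genes was higher in Cal-0 in 3 of the 4 pairs, and the groups overlapped in all of them. By array number XTH18 averaged 39.9 in arrays 5 to 8 and 56.8 in arrays 1 to 4, and XTH19 averaged 52.2 in arrays 5 to 8 and 30.2 in arrays 1 to 4, neither past the threshold (limma adjusted p = 0.428 and 0.0726). XTH16 averaged 72.6 ± 31.4 in Cal-0 and 78.6 ± 26.0 in Col-4.

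As a group, expansin and XTH signals varied more between arrays of an accession than most probe sets did. The median residual SD of the 18 genes was 0.35 on the log2 scale, against 0.24 over all tested probe sets, and 15 of the 18 were above that median. This comparison was not matched for signal. A mean of at least 100 was reached by 6 of the 18 genes and by 6614 of the 15165 tested probe sets. The array number went with some of these values. Arrays 5 to 8 were below arrays 1 to 4 for 14 of the 18 genes (77.8%, against 56.5% of all tested probe sets), with a median log2 difference of -0.22, against -0.05 over all. EXPA8 was the gene called in this comparison, averaging 88.4 over arrays 5 to 8 and 212 over arrays 1 to 4 (a difference of -1.12 on the log2 scale, limma adjusted p = 0.0386), where 6.81% of all tested probe sets passed and 3.3% were lower. The EXPA8 call was lost without Cal-0 replicate 2 or 3, or Col-4 replicate 1, 2 or 3. The labels do not say what set the arrays apart.

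**Figure D4:**
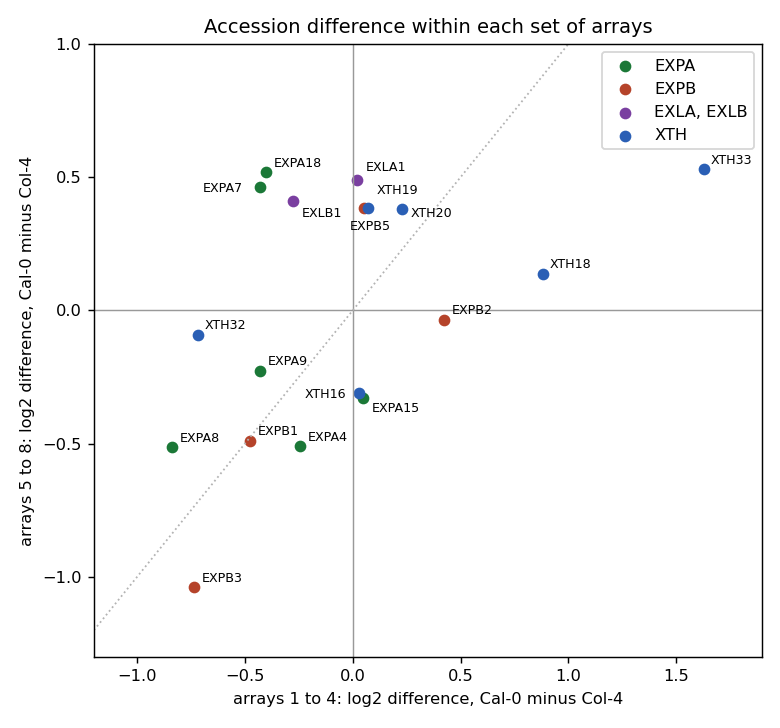
Log2 difference, Cal-0 minus Col-4, of the 18 tested genes within arrays 1 to 4 (horizontal axis) and within arrays 5 to 8 (vertical axis), coloured by class. The dotted line marks equal differences. EXPB3, EXPA8 and EXPB1 lie in the lower left, XTH33 at 1.63 and 0.53 in the upper right, and 6 of the 18 genes have opposite signs on the axes.

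The genes without enough signal to test gave no call when the filter was dropped (0 of 9, against 2.47% of all 22746 probe sets), and none had an unadjusted p under 0.05. Their means over the 8 arrays lay between 1.62 and 20.7, and 4 were alpha-expansins, 2 expansin-like and 3 XTH genes. The smallest unadjusted p was 0.0514, for EXLA3, with 5.95 ± 2.54 for Cal-0 and 2.30 ± 0.572 for Col-4 (SD over the arrays, n = 4 per accession), signals too low to carry a level. XTH26, known from root hairs, and XTH21, known from roots, were at 0.9 to 10.9 on all arrays. EXPA21 and EXPA24 lie in a cluster of expansin genes with 4 others between them, and were at 1.5 to 10.7. A family name is carried only as a synonym by EXGT-A3 (XTH27), which did not pass (difference 0.08, limma adjusted p = 0.941), and by AT4G30380 (EXLB2), too dim to test.

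Xyloglucan, on which XTH enzymes act, is made in the Golgi on a glucan backbone laid down by CSLC proteins. The list of xyloglucan synthesis genes, chosen with results of these data known, had 5 measured members, all CSLC genes. CSLC04 (AT3G28180), the main backbone synthase gene of vegetative tissue, was at 119.3, 136.5, 172.5 and 134.5 in Cal-0, against 250.3, 240.3, 246.4 and 242.8 in Col-4. The Col-4 arrays were nearly equal and every Cal-0 array lay below them. The mean in Cal-0 was 57.4% of that in Col-4 (a difference of -0.75 on the log2 scale with a standard error of 0.14, limma adjusted p = 0.00874). The other 4 did not pass: CSLC5, CSLC6 and CSLC12 had differences between -0.02 and 0.02, and ATCSLC08 of 0.17. The median of the 5 was -0.01. Within arrays 5 to 8 the CSLC04 difference was -0.63 and did not pass (limma adjusted p = 0.134).

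The 14 lists of wall polymer, wall sensing and growth hormone genes were chosen with results of these data known. Shares called among them therefore cannot show an excess. For 10 of the lists the gene table matched 38 genes, and 23 were tested. Of these 2 were lower in Cal-0 (8.7%, against 2.75% of all tested probe sets), none was higher and 21 did not pass, with a median difference of -0.01. The other called gene was CSLA01 (AT4G16590), of a family that includes the glucomannan synthases. It was at 27.2, 44.6, 33.1 and 31.7 in Cal-0, against 122.2, 101.6, 200.3 and 87.7 in Col-4, with no overlap (a difference of -1.47 on the log2 scale, limma adjusted p = 0.00223). Both genes also passed with the replicate block, and within arrays 1 to 4 CSLA01 did not (limma adjusted p = 0.0651). Of the genes that did not pass, CSLA03 differed by 0.45, COB, needed for oriented cellulose deposition, by 0.17, and the xylan synthase gene GUT2 by -0.02. The pectin synthesis gene GAUT15 differed by -0.12 and the pectin methylesterase gene ATPMEPCRB by 0.62. The wall sensing receptor kinase gene THE1 differed by 0.39 and its relative FER by -0.06. IAA29, a repressor of auxin response, differed by -0.48 and the gibberellin receptor gene GID1B by 0.07. BRL1, the only brassinosteroid gene matched, was too dim to test.

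**Figure D5:**
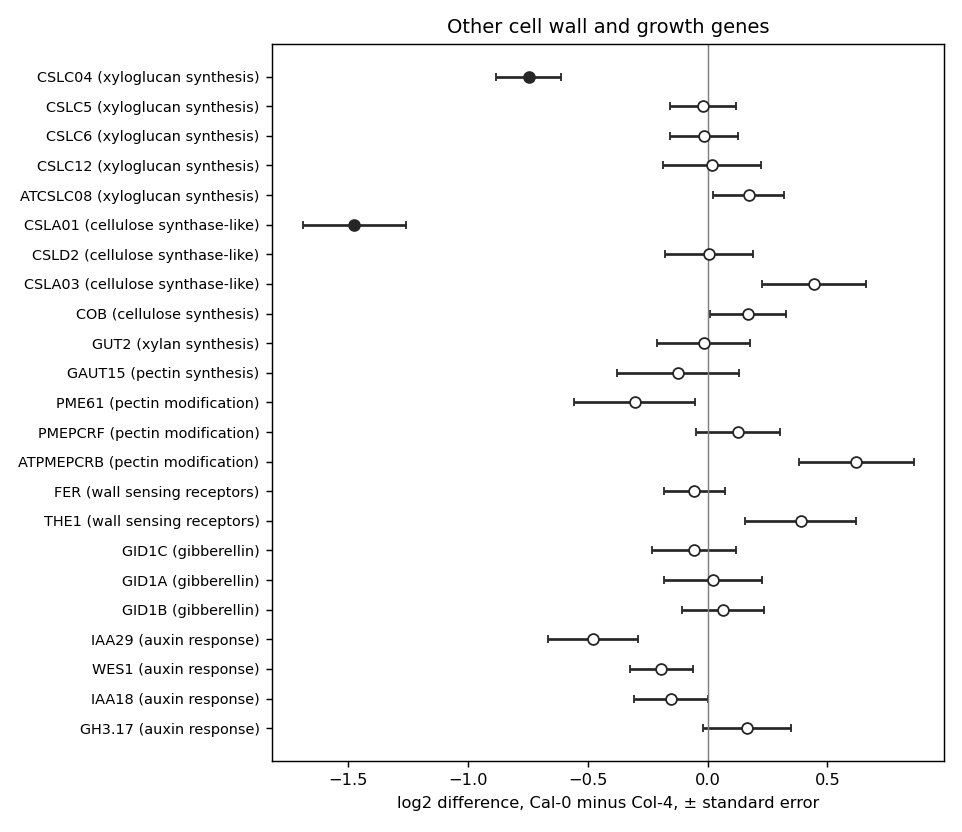
Log2 difference, Cal-0 minus Col-4, of the 23 tested genes of other wall and growth lists (horizontal axis), with bars of 1 standard error and the list beside each symbol. Filled circles have a limma adjusted p under 0.05. CSLC04 at -0.75 and CSLA01 at -1.47 are the 2 filled points.

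Markers of organs and cell types were matched for 3 of 6 lists. The 3 LHCB4 genes of the photosynthetic antenna summed to 8111 to 12345 in Cal-0 and 10047 to 15522 in Col-4, and none passed without the block. LHCB4.2 passed with the replicate block (a difference of -0.55 on the log2 scale, limma adjusted p = 0.0239), as XTH33, EXPB3, EXPA8 and EXPB1 did. That fit called 4.95% of all tested probe sets lower in Cal-0. The other 2 LHCB4 genes did not pass there: LHCB4.1 differed by -0.20 (limma adjusted p = 0.383) and LHCB4.3 by 0.18, higher in Cal-0 in 3 of 4 pairs (limma adjusted p = 0.513). PYK10 of roots differed by 0.35 (limma adjusted p = 0.723). Of the guard cell lineage genes, FMA averaged 42.2 ± 9.11 for Cal-0 and 43.8 ± 3.26 for Col-4 (SD over the arrays, n = 4 per accession), while MUTE and SPCH were too dim to test. No flower, pollen or xylem marker was analysed here. The part of organ make-up in the expansin and XTH differences was not tested.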

How the data were processed

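Total RNA of whole plants was measured on 8 arrays, 4 for each accession as the labels give it. Each deposited value is the intensity of a probe set on a linear scale. Per the submitters' processing notes the authors used MAS5 (its settings: not given in the sources used here). With 2% trimmed at either end, array means were about 100.01. Leaving out 64 controls, 22746 probe sets remained: 13513 carried 1 gene in the platform annotation, 503 several, and 8730 stay unnamed here. Family genes on 2 shared probe sets were left out. All 27 genes matched RefSeq (TAIR10.1), used for names and gene order only.

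Signals were transformed as log2(signal + 16), and probe sets with a mean of at least 25 were fitted in limma 3.58.1 under R 4.3.3 (lmFit, eBayes, two-sided, no covariate, 6 residual degrees of freedom, or 3 with the replicate block), with Benjamini-Hochberg adjustment over all tested probe sets. No label says that replicates were separate plants, so p-values measure only how these samples spread, and that spread may be technical. No label says that same-numbered arrays of the accessions were grown or processed together. They correlated at 0.278, 0.376, 0.478 and 0.403 in their deviations, each above 0.1, the rule used for the block. Unlike numbers met this rule too, so it does not establish a pairing. For replicates 1 and 2, unlike numbers correlated as well (0.273 and 0.382), so there the evidence from the data does not single out the number. Cal-0 replicate 4 and Col-4 replicate 3 were also above 0.1, at 0.142, though below their same-numbered pairs.

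The genes, lists, tests and alternatives were chosen with earlier results of these data known. Per-array signals are given for genes called with or without the block and for the 6 uncalled genes of the smallest p, and further genes were added after their values were seen. Tested on data simulated from the measured means and spreads, the limma step recovered 14.5% of differences of 0.5, 68.3% of 1 and 96.4% of 2 on the log2 scale, among 15165 probe sets. Changed probe sets were drawn at random from all of these, and the simulated arrays varied independently, without array sets. These shares are therefore not those of the 18 genes, whose median residual SD was larger (0.35 against 0.24). Exact permutation tests used scipy 1.17.1. Protein and promoter sequences were not used here. Alternatives were other pseudocounts, filters, normalizations, weights, blocks, a covariate and each array left out.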

Additional observations from a re-analysis of the deposited data

Results flagged for a closer look

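In 58 groups of 4 arrays behind the 27 genes, CSLC04 and CSLA01, 5 held an array set apart from the other 3 by Dixon's criterion on the log2(signal + 16) scale, and chance gives about 1 group in 20. In Cal-0 replicate 3, EXLA2 was at 35.9 against 5.1 to 5.9 in the other Cal-0 arrays, and EXPA18 was at 81.5 against 48.7 to 51.8. In Cal-0 replicate 1, EXPA9 was at 61.7 against 39.1 to 42.4. In Col-4 replicate 2, EXPA20 was at 7.8 against 26.3 to 30.4, and in Col-4 replicate 1, XTH26 was at 3.3 against 1.1 to 1.4, a signal too low to carry a level.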

How the results depend on the processing

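Differences are Cal-0 minus Col-4 on the log2 scale. Of all probe sets, 651 passed, 1299 with the replicate block, 1095 with the array set block, 406 of those with a mean signal of at least 100, 379 within arrays 1 to 4, 319 within arrays 5 to 8, and 412 to 672 with 1 array left out (412 with Cal-0 replicate 1 dropped, 413 with Col-4 replicate 2 dropped). Of the expansin and XTH genes 1 passed. With the replicate block, which assumes a pairing by number that the labels do not give, 4 passed. The count was 0 with a pseudocount of 1, without the filter and within arrays 5 to 8, and 2 with a pseudocount of 50, the array set block, array weights, quantile normalization, a robust fit with intensity trend or median centring. In each of these cases the 2 were EXPB3 and XTH33. Over all probe sets, 538 passed with a pseudocount of 1 and 561 without the filter. The number was 711 with a pseudocount of 50, 864 with array weights, 698 with quantile normalization, 689 with the robust fit and 664 with median centring. With a minimum mean signal of 100 the 1 gene called was EXPB3, XTH33 being too dim. With 1 array left out it was 0 to 2, being 0 without Cal-0 replicate 2, 3 or 4 or Col-4 replicate 1 or 2, 2 without Col-4 replicate 4, and EXPB3 in place of XTH33 without Cal-0 replicate 1. Their median was -0.39 among those with a mean signal of at least 100. With 1 array left out it ran from -0.15 to 0.19, against a main value of 0.04 and a spread between replicates of 0.20. The EXPA8 call between arrays 5 to 8 and arrays 1 to 4 gave a count of 0 to 1 with 1 array left out. Of the other wall genes 2 passed, and 1 with a mean signal of at least 100, within arrays 1 to 4 and within arrays 5 to 8. Over all alternatives, 23 values in 7 uncalled genes changed sign. Within arrays 1 to 4 the difference was -0.28 for EXLB1, 0.046 for EXPA15, -0.40 for EXPA18, -0.43 for EXPA7 and 0.029 for XTH16, and within arrays 5 to 8 it was -0.034 for EXPB2. With array weights it was -0.031 for EXLB1, -0.038 for EXPA18 and -0.11 for EXPA7. With a pseudocount of 50 it was -0.0079 for EXPA7, and with the RNA quality ratio as a covariate 0.051 for XTH16. With 1 array left out it ran from -0.090 to 0.46 for EXLA1, from -0.34 to 0.27 for EXLB1, from -0.080 to 0.18 for EXPA18, from -0.19 to 0.27 for EXPA7 and from -0.32 to 0.16 for XTH16. The cause of these changes was not tested. Alternatives with arrays left out of the array set comparison were chosen after seeing the data. The planned protein and promoter comparisons were not run.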
